A study of Mus musculus with 12 samples.

Results

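Of the 32544 genes in the deposited count table, 8 on mouse chromosome 8 are described here: Ankrd37, Sap30, Hpgd, Lpl, Jak3, Armc6, Zfp868 and Slc35e1. They were picked by symbol because their expression differed between macrophages labelled PHD2cko and macrophages labelled WT, so that difference chose them and is given below as a description, without a test. All 8 were among the 14285 genes with enough counts to be tested, of which 750 lie on chromosome 8. The same chromosome carries Egln1, the gene that encodes PHD2 and that was targeted in the PHD2cko mice.

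All mice had been crossed back to C57Bl6/J. Bone marrow-derived macrophages (BMDMs) labelled PHD2cko came from mice with a conditional knockout of PHD2, in which Cre recombinase is driven by the lysozyme M promoter (LysMCre) and is therefore active in myeloid cells. BMDMs labelled WT came from LysMCre mice with intact PHD2. BMDMs were grown with L929-conditioned medium, and their RNA was taken 24 h after seeding. NIH/3T3 cells, an established mouse fibroblast line, were serum-starved and then sequenced after 72 h in medium conditioned by WT or by PHD2cko BMDMs. A single cell line was used in both media, so the 3T3 libraries are read here as a comparison in which the fibroblasts shared their chromosome 8 genotype. Each of the 4 groups held 3 libraries. The age of the BMDM donors, the number of mice behind the BMDM cultures and the oxygen level are not given in the sources used here, so p-values measure only the spread between these libraries, which may be technical.

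PHD2 is an oxygen-dependent prolyl hydroxylase that marks the α subunits of the hypoxia-inducible factors (HIF) for degradation, and without its activity HIF accumulates and binds short core motifs in the control regions of its target genes. Ankrd37, which encodes an ankyrin repeat protein, and Sap30, which encodes a subunit of the SIN3 histone deacetylase complex, are known among the targets of HIF. The other genes have unrelated roles. Hpgd encodes 15-hydroxyprostaglandin dehydrogenase, the enzyme that inactivates prostaglandin E2, and Lpl encodes lipoprotein lipase, which hydrolyses the triglycerides of circulating lipoproteins and is secreted by macrophages. Jak3 encodes the tyrosine kinase that signals from cytokine receptors with the common γ chain. Slc35e1 belongs to the SLC35 family of solute carriers, Armc6 encodes an armadillo repeat protein, and Zfp868 encodes a zinc finger protein.

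The bases just before the start of a gene are where the HIF core motif is usually sought, so this stretch is shown for the genes with the largest differences and for both genes that were lower. RefSeq promoters (build GRCm38.p6) matched 7 of the 8 genes, all but Lpl. The cores ACGTG and GCGTG were searched on both strands in the 250 bases before the start, and the matches are in capitals below, where a match on the opposite strand reads CACGT or CACGC and overlapping matches form a single run of capitals. The sequences run 5′ to 3′ on the strand of the gene and lie at chr8:45999851-46000100 (minus strand) for Ankrd37, at chr8:57487861-57488110 (minus strand) for Sap30, at chr8:56294302-56294551 (plus strand) for Hpgd and at chr8:72492615-72492864 (minus strand) for Slc35e1.
Ankrd37: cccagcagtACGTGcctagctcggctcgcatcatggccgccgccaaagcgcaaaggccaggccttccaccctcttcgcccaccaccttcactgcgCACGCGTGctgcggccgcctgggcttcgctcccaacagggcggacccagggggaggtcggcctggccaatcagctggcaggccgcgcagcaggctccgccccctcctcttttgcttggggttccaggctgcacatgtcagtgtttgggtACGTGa
Sap30: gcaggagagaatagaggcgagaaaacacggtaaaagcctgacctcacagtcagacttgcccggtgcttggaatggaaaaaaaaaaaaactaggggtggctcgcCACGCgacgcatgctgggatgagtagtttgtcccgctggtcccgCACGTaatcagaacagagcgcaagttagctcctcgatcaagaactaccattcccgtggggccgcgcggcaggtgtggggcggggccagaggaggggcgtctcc
Hpgd: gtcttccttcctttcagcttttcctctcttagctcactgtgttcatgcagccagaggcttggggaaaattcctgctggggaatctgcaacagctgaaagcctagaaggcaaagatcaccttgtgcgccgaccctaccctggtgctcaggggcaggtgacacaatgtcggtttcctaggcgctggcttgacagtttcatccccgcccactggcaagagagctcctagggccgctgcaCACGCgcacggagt
Slc35e1: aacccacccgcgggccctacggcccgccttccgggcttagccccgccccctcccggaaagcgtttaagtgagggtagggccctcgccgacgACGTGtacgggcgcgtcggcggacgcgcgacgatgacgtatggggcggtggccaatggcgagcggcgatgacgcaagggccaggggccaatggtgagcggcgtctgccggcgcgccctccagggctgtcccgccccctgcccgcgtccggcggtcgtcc

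Ankrd37 held 4 matches. Both of its ACGTG matches, at 241 and 6 bases before the start, and both of its GCGTG matches, at 155 and 152 bases, can be read above, and the GCGTG pair overlaps on opposite strands. Sap30 held ACGTG at 103 bases and GCGTG at 147 bases before the start. Hpgd held a GCGTG match at 14 bases and Slc35e1 an ACGTG match at 159 bases. Armc6 held GCGTG at 218 bases, whereas neither motif was found in this window for Jak3 or for either promoter of Zfp868. In all, 5 of the 7 genes with a promoter held at least 1 of the cores, and so did 38.6% of the 32851 mouse promoters of this length. Taken apart, ACGTG was held by 16.6% and GCGTG by 28.2% of all promoters. The E-box CACGTG, which contains ACGTG, and the PU.1 core GAGGAAGT, searched on both strands, were found in none of the 7 genes with a promoter and in 6.02% and 2.44% of all promoters. A match describes the letters in the window and not binding.

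Library totals ran from 15516465 to 25199770 counts, so that a count of 0 allowed up to 3 counts, or at most 0.193 CPM (counts scaled to a library size of 1e6), which covers counting error only. Levels below are CPM over the TMM-scaled library size, given as mean ± SD with n = 3. A gene is said to be called where its adjusted p was under 0.05. Of 20 macrophage markers none was called between the BMDM groups by edgeR, although their summed level ran from 43193 to 45824 CPM in PHD2cko and from 48843 to 50721 CPM in WT BMDMs. The library of 3T3 in WT medium replicate 1 stood apart from its group: a chi-square test of the counts over genes, divided by its degrees of freedom, gave 24.6 and 26.2 against the other 2 libraries and 2.34 between those 2. Less far apart, BMDM PHD2cko replicate 3 gave 8.16 and 7.17 against the other 2 libraries of its group and 2.11 between those, and without it the log2 fold changes of the 8 genes in BMDMs moved by at most 0.042. Egln1 did not fall in the libraries labelled PHD2cko. It was at 55.8, 54.7 and 55.5 CPM in WT and at 68.8, 68.3 and 71.6 CPM in PHD2cko BMDMs, a log2 fold change of 0.33 ± 0.053 (SE; edgeR quasi-likelihood test, Benjamini-Hochberg adjusted p = 0.00203). A gene-level count adds all exons and cannot show the loss of a part of the gene, and so this value does not check the deletion, and PHD2cko below is the label of the libraries.

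All 8 genes were past an adjusted p of 0.05 in BMDMs, as their selection required, 6 of them higher and 2 lower in PHD2cko. Of all genes tested, 6.73% were called in this comparison, 3.38% higher and 3.35% lower, and nothing is read from the count of members. Groups without overlap, which all 8 showed, were found for 31.9% of all genes tested. In bulk RNA, fewer cells of a type and less RNA per cell cannot be told apart.

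**Figure D1:**
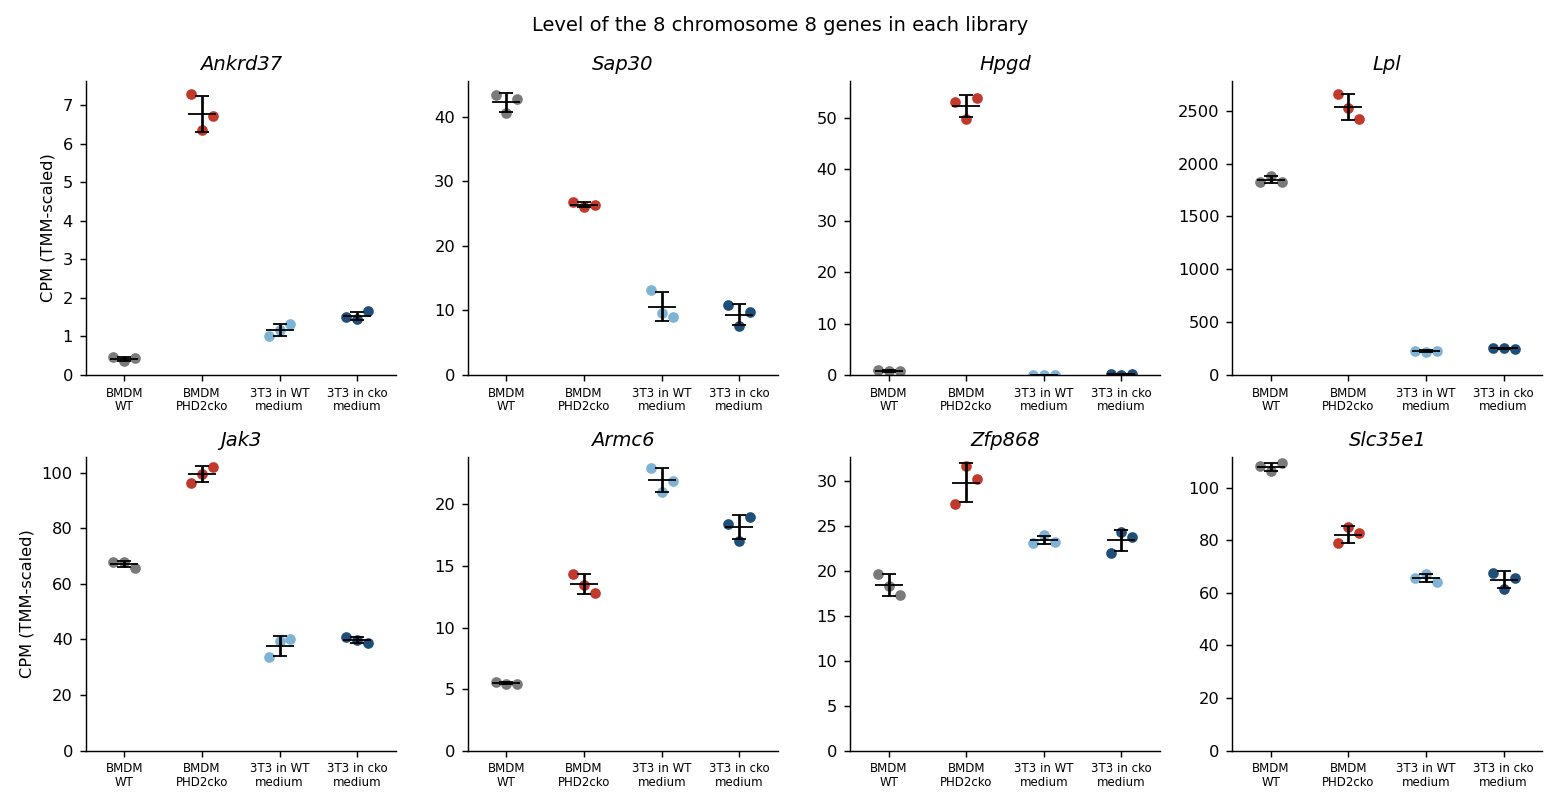
Level of each of the 8 genes in CPM (vertical axes start at 0) in the 3 libraries of each group, with the mean and SD as black bars. Hpgd is near 0 in every group but PHD2cko BMDMs, and Armc6 is the gene whose BMDM and 3T3 groups differ in opposite directions.

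Ankrd37 (ENSMUSG00000050914, chr8:45996902-46005707) was barely detected in WT BMDMs, with 7, 6 and 7 counts or 0.454, 0.363 and 0.426 CPM. In PHD2cko BMDMs it had 120, 93 and 128 counts, or 7.28, 6.35 and 6.72 CPM. The groups were 16.2-fold apart, a log2 fold change of 4.01 ± 0.193 (SE). Its annotated span overlaps Lrp2bp on the opposite strand over 6405 bases and Ufsp2 over 57 bases. Lrp2bp had only 0.0605 CPM in WT and 0.442 CPM in PHD2cko BMDMs, and the strand setting of the counting is not given in the sources used here.

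Sap30 (ENSMUSG00000031609, chr8:57482707-57487860), the other known HIF target of the group, differed in the opposite direction. It was at 43.4, 40.6 and 42.8 CPM in WT and at 26.8, 26.0 and 26.4 CPM in PHD2cko BMDMs. Every PHD2cko library was lower than every WT library, and the log2 fold change was -0.68 ± 0.116. Of this pair, Ankrd37 with 4 core matches was higher and Sap30 with 2 was lower. Egln1 also held 2 matches, ACGTG at 68 and GCGTG at 126 bases before the start, and was higher. Jak3 and Zfp868, without a match in the window, were higher too. Whether the matches bear on the direction was not tested.

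Hpgd (ENSMUSG00000031613, chr8:56294585-56321043) showed the largest difference of the 8. It had 15, 11 and 11 counts in WT BMDMs and 875, 730 and 1028 in PHD2cko BMDMs, which correspond to 0.770 ± 0.177 and 52.3 ± 2.16 CPM. The prostaglandin-inactivating enzyme was thus 67.8-fold higher, with a log2 fold change of 6.08 ± 0.150. Lpl (ENSMUSG00000015568, chr8:68880491-68907448) was by far the most abundant gene of the group, and its difference was small. It was at 1829, 1884 and 1825 CPM in WT and at 2660.0, 2529 and 2419 CPM in PHD2cko BMDMs, and its log2 fold change of 0.46 ± 0.058 corresponds to 1.37-fold.

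Jak3 (ENSMUSG00000031805, chr8:71676296-71690575) was at 68.0, 67.7 and 65.8 CPM in WT and at 96.4, 99.7 and 102 CPM in PHD2cko BMDMs, a log2 fold change of 0.57 ± 0.059. The last 1362 bases of its span are shared with Insl3 on the same strand, which had 2.50 and 2.46 CPM in the WT and PHD2cko groups. Jak3 is best known from lymphoid cells. B and plasma cell markers, of which edgeR called Ighg2b and Igkc higher and Ighm lower, are given further below. Markers of T and NK cells were read beside Jak3. Of 13 such markers 5 were testable and none was called (edgeR), their summed level was 4.22 to 5.87 CPM in WT and 4.98 to 6.56 CPM in PHD2cko BMDMs, and Cd3e, Ncr1, Nkg7 and Gzmb were at 0 counts in all 6 libraries.

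Armc6 (ENSMUSG00000002343, chr8:70220172-70234466) was at 5.58, 5.45 and 5.41 CPM in WT and at 14.4, 13.5 and 12.8 CPM in PHD2cko BMDMs, a log2 fold change of 1.30 ± 0.082. It shares 241 bases with Sugp2 on the other strand, which was at 42.1 and 40.2 CPM in the WT and PHD2cko groups. Zfp868 (ENSMUSG00000060427, chr8:69610857-69625548) was at 19.7, 18.3 and 17.3 CPM in WT and at 27.4, 31.7 and 30.3 CPM in PHD2cko BMDMs, a log2 fold change of 0.69 ± 0.070. These zinc finger and armadillo repeat genes start at 69.6 and 70.2 Mb, and both were higher in all 3 PHD2cko libraries. Pbx4, which starts between them at 69.8 Mb, was lower, with a log2 fold change of -1.82 ± 0.310. Slc35e1 (ENSMUSG00000019731, chr8:72480641-72492614), the solute carrier, was lower, with 108, 106 and 109 CPM in WT against 78.8, 84.9 and 82.7 CPM in PHD2cko BMDMs and a log2 fold change of -0.39 ± 0.047.

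Per kilobase of exon the order of the genes changed with genotype. In WT BMDMs Lpl was highest at 176 CPM per kilobase, followed by Sap30 at 35.9, Slc35e1 at 24.1, Jak3 at 12.6, Zfp868 at 6.37, Armc6 at 1.68, Hpgd at 0.457 and Ankrd37 at 0.269. In PHD2cko BMDMs Hpgd stood not near the bottom of this order but next under Lpl, at 31.1 against 242 CPM per kilobase, and above Sap30 at 22.4, Jak3 at 18.6 and Slc35e1 at 18.4. Ankrd37 reached 4.41 CPM per kilobase, close to Armc6 at 4.15.

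The question put to the 3T3 libraries was whether these genes also differed where a single cell line was used in both media. Macrophage markers differed between these libraries too, as given below. Armc6 was the only one of the 8 to pass the threshold by edgeR, and it fell, against a background of 15.7% of all genes called and 6.75% called lower. It was at 23.0, 21.0 and 21.9 CPM in WT medium and at 18.4, 17.1 and 19.0 CPM in PHD2cko medium, a log2 fold change of -0.27 (adjusted p = 0.0135). The 3T3 groups did not overlap, and the direction was opposite to that of the BMDMs. This call was lost without replicate 2 of PHD2cko medium (adjusted p = 0.0520) and in a fit of the 3T3 libraries alone (adjusted p = 0.0663). Its adjusted p ran from 0.0106 to 0.0663 over the alternatives.

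The other 7 genes did not pass the threshold in 3T3 by edgeR, and 2 of them, Ankrd37 and Lpl, had groups without overlap, as did 31.9% of all genes. Ankrd37 was at 1.02, 1.16 and 1.32 CPM in WT medium and at 1.49, 1.45 and 1.65 CPM in PHD2cko medium (log2 fold change 0.39 ± 0.176, adjusted p = 0.226). Lpl was at 227, 212 and 231 CPM against 257, 254 and 242 CPM (log2 fold change 0.17 ± 0.058, adjusted p = 0.0705). For Lpl, the threshold was passed by DESeq2 (adjusted p = 0.00539), by limma-voom (adjusted p = 0.0263) and without the deviating replicate 1 of WT medium (adjusted p = 0.0248), which brought the members called to 2 in each case.

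Macrophage markers also differed between the 3T3 groups. The summed level of 20 macrophage markers relative to that in BMDMs amounted to 0.0819 ± 0.00676% in WT medium and to 1.68 ± 0.977% in PHD2cko medium, and 18 of the 20 markers were higher in PHD2cko medium. Subtracting this share of the BMDM profile, an estimate from the markers alone, took 947, 200 and 899 of the 5003, 4388 and 4988 Lpl counts in PHD2cko medium. After the subtraction, the log2 fold change of Lpl was -0.01 (adjusted p = 0.981) and that of Armc6 -0.25 (adjusted p = 0.0248). Whether macrophage RNA was the source of these counts was not tested.

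Hpgd was essentially at the floor in 3T3. It had 0, 2 and 0 counts in WT medium and 4, 1 and 3 in PHD2cko medium, all of which the subtraction removed in PHD2cko medium, and no fold is given (adjusted p = 0.120). Without replicate 2 of WT medium, which left that group at 0 counts, the adjusted p was 0.0390. Of the remaining members, Sap30 had a log2 fold change of -0.16 ± 0.142 (adjusted p = 0.493) and Jak3 of 0.08 ± 0.063 (adjusted p = 0.453). Zfp868 was at 23.4 ± 0.462 CPM in WT medium and 23.4 ± 1.20 CPM in PHD2cko medium (adjusted p = 0.978), and Slc35e1 at 65.5 ± 1.53 and 64.9 ± 3.24 CPM (adjusted p = 0.896). A p that misses the threshold does not show that the levels were equal.

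**Figure D2:**
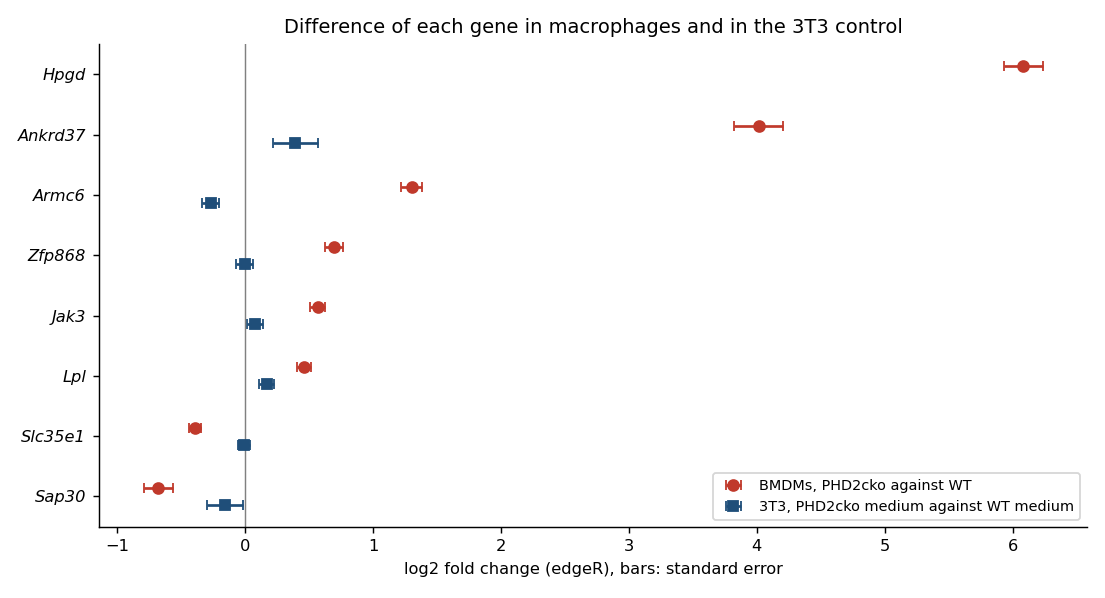
Log2 fold change (horizontal axis) of the 8 genes in BMDMs, PHD2cko against WT, and in 3T3, PHD2cko medium against WT medium, with standard errors; 3 libraries a group. Hpgd is not drawn for 3T3, where its counts were at the floor, and Armc6 is 1.30 in BMDMs and -0.27 in 3T3.

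The levels in macrophages and fibroblasts set the genes further apart. WT BMDMs exceeded 3T3 cells in WT medium for Lpl, Sap30, Jak3 and Slc35e1, with log2 fold changes of 3.05, 2.01, 0.83 and 0.72, and for Hpgd, which was at least 4.56-fold higher against a floor of 3 counts in each 3T3 library. Fibroblasts exceeded WT BMDMs for Armc6, Ankrd37 and Zfp868, by log2 fold changes of -2.00, -1.48 and -0.35 (BMDM WT against 3T3). All 8 passed an adjusted p of 0.05 by edgeR, as did 85.3% of all genes tested, so this count is near the background, and the comparison shares its WT BMDM libraries with the one that chose the genes. In order of level, Zfp868 went from PHD2cko BMDMs over both 3T3 groups, which overlapped, down to WT BMDMs, and so the PHD2cko BMDMs lay above and the WT BMDMs below the fibroblasts. For Ankrd37 the order was the same, but the 3T3 groups did not overlap. For Armc6 both 3T3 groups were above PHD2cko BMDMs. Jak3, Lpl and Hpgd were highest in PHD2cko BMDMs and then in WT BMDMs, and Sap30 and Slc35e1 in WT and then in PHD2cko BMDMs, in each case above both 3T3 groups.

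The 8 genes start within 26.5 Mb of each other and between 52.4 Mb (Slc35e1) and 78.9 Mb (Ankrd37) from the start of Egln1, so none is its neighbour. Chromosome 8 as a whole had 93 of 750 genes called in BMDMs by edgeR, or 12.4%, the highest share of any chromosome; chromosome 5 followed with 8.46%. Without the 8 genes, 85 of 742 were called (11.5%), against 6.39% on the other chromosomes, a ratio of 1.79. In a fit of the BMDM libraries alone, which called more genes everywhere, these shares were 22.2% and 17.3%, a ratio of 1.29. Of these 93, 45 were higher and 48 lower, and the median log2 fold change of chromosome 8 was 0.01. In 3T3 the share on chromosome 8 was 14.5%, below the 15.8% of the other chromosomes.

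Along the chromosome the calls were not spread evenly. Windows of 10 Mb from the start of the chromosome to 40 Mb held 3 called genes among 169 (1.78%). In the windows from 40 to 80 Mb, a range set after the positions of the 8 genes were known, 49 of 209 genes were called (23.4%), and 41 of 201 (20.4%) without the 8. The window from 60 to 70 Mb, with Lpl and Zfp868, had 13 of 43 genes called (30.2%). Without the members, it had 11 of 41 (26.8%) and stood at rank 3 of 225 windows of the genome with at least 20 other genes tested. The window from 70 to 80 Mb, with Armc6, Jak3 and Slc35e1, had 26 of 116 (22.4%), and without the members 23 of 113 (20.4%) and rank 5. The window with Ankrd37, from 40 to 50 Mb, had 7 of 39 (17.9%), and without Ankrd37 6 of 38 (15.8%) and rank 17. The sparse window with Hpgd and Sap30, from 50 to 60 Mb, had 3 of 11, and 1 of 9 without them. Past 80 Mb, where none of the 8 lies, the shares varied. The window from 80 to 90 Mb had 7 of 87 genes called (8.05%). That from 90 to 100 Mb had 9 of 52 (17.3%). The windows from 100 to 110 Mb and from 110 to 120 Mb had 5 of 91 (5.49%) and 4 of 55 (7.27%), against 6.73% of all genes tested. Near Egln1, from 120 to 130 Mb, 16 of 87 genes were called (18.4%). In 3T3, the range from 40 to 80 Mb had 32 of 209 genes called (15.3%), close to the 15.7% of all genes.

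**Figure D3:**
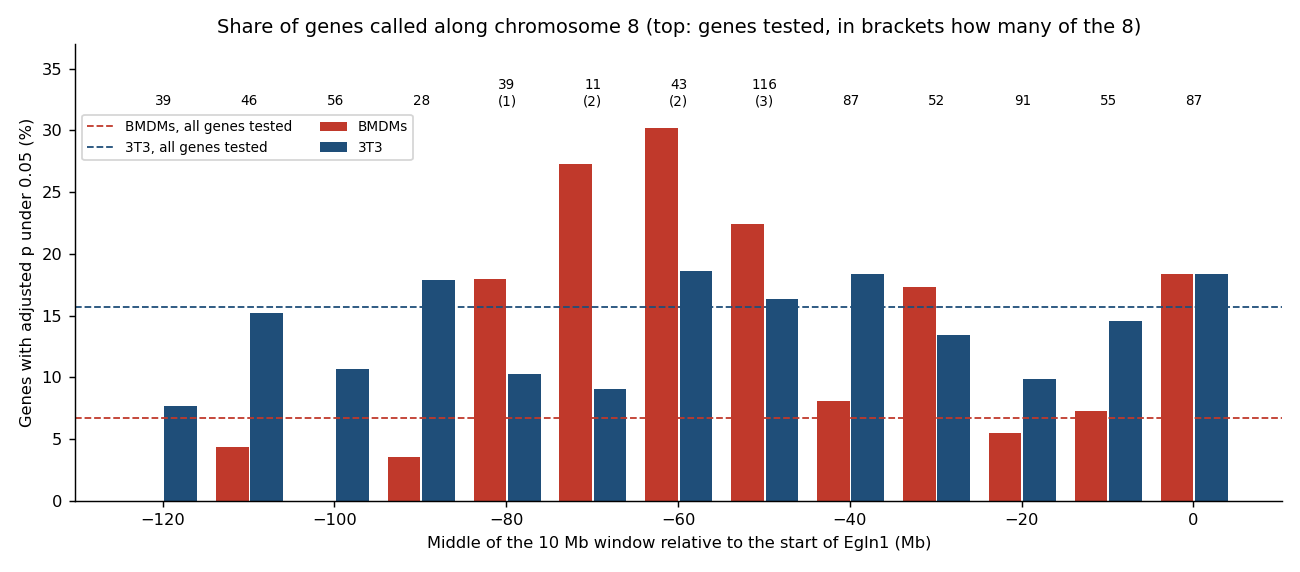
Percent of genes tested with an adjusted p under 0.05 (vertical axis) in 10 Mb windows of chromosome 8, placed by the distance of their middle from the start of Egln1 in Mb, for BMDMs and 3T3; numbers at the top give the genes tested and, in brackets, how many of the 8 lie there. The BMDM bars reach 30.2% in the window of Lpl and Zfp868 (26.8% without these), against 6.73% over all genes tested (red dashed line), and the 3T3 bars stay near or below 18.6%.

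Among the 16 nearest genes tested, on either side of the 8 genes by gene start, 3 passed the threshold in BMDMs (18.8%, against 6.73% of all genes tested), 2 higher and 1 lower. Their median absolute log2 fold change was 0.25, against 0.11 over all genes tested with a position, and 8 of the 16 had groups without overlap, as did 31.9% of all genes tested. No test was made on so few genes. Ints10, a subunit of the Integrator complex that starts 86.6 kb before Lpl, rose by 0.58 ± 0.060 on the log2 scale (adjusted p = 6.85e-05), beside 0.46 for Lpl. Ufsp2, a protease of the UFM1 pathway next to Ankrd37, rose by 0.35 ± 0.053 (adjusted p = 0.00132). Spcs3, a signal peptidase subunit 1774 kb before Hpgd, fell by 0.54 ± 0.047 (adjusted p = 1.56e-05), opposite in direction to Hpgd. Cep44, on the other side of Hpgd, was at 12.9 and 13.6 CPM in WT and PHD2cko BMDMs (adjusted p = 0.694). The neighbours of Armc6, Jak3, Zfp868, Sap30 and Slc35e1 did not pass the threshold, with log2 fold changes between -0.15 (Cherp, beside Slc35e1) and 0.35 (Gm10311, beside Zfp868), although Cherp and Unc13a, the latter beside Jak3, passed in a fit of the BMDM libraries alone (adjusted p = 0.0329 and 0.0284). Lrp2bp, which overlaps Ankrd37, had the largest value of the 16, 2.65 ± 0.916, and did not pass (adjusted p = 0.118; 0.0423 without replicate 3 of PHD2cko). At so few counts its log2 fold change ran from 2.11 without WT replicate 3 to 6.01 without WT replicate 2.

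**Figure D4:**
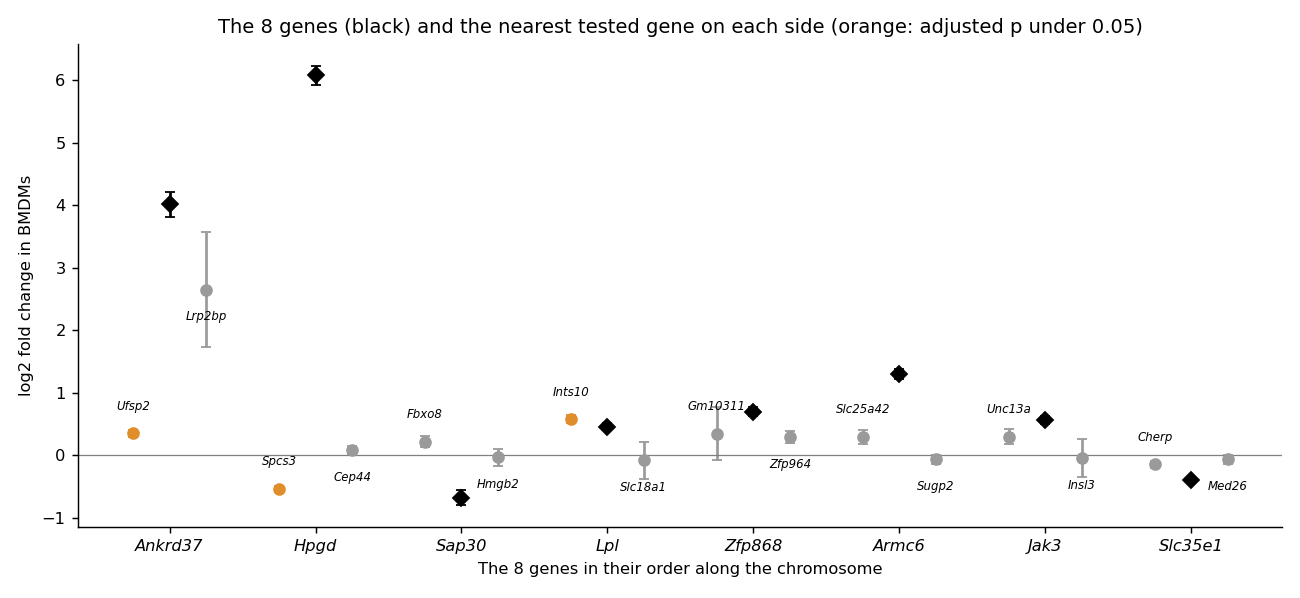
Log2 fold change in BMDMs (vertical axis, bars are standard errors) of the 8 genes, as black diamonds in their order along the chromosome, and of the nearest tested gene on each side. Ints10, Ufsp2 and Spcs3 are the 3 neighbours past the threshold (orange), and Hpgd at 6.08 stands beside Spcs3 at -0.54 and Cep44 at 0.08.

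Zfp868 lies in a cluster of related zinc finger genes. Of 22 tested chromosome 8 genes with a Zfp symbol, 3 passed the threshold in BMDMs (13.6%, against 6.73% of all genes tested). They were the selected Zfp868, Zfp882, which rose by 0.48 on the log2 scale (adjusted p = 0.0316), and Zfp961, which fell by 0.78 (adjusted p = 9.38e-05). Its closest relatives by position, Zfp964, Zfp869, Zfp963 and Zfp866, had log2 fold changes of 0.29, -0.09, 0.20 and -0.12 and did not pass. The median over the 22 genes was 0.00 in BMDMs and 0.02 in 3T3. Zinc finger genes of such clusters resemble each other in sequence, and reads that fit several of them are divided by the counting, so the values of single members are uncertain.

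Beyond the 8, another 81 chromosome 8 genes passed the threshold in BMDMs with at least 1 CPM and without overlap, 38 higher and 43 lower. Gm8730, a processed copy of the ribosomal protein gene Rplp0, had the largest rise, from 5, 0 and 1 counts in WT to 6068, 5368 and 7641 in PHD2cko BMDMs. Its sequence is nearly that of its parent gene, so reads cannot be assigned to it with certainty. The next largest rises were those of Adgrg1, an adhesion receptor, by 2.52 ± 0.318 on the log2 scale (adjusted p = 0.000317), of Nxnl1 by 1.57 and of Fam129c by 1.45. Nxnl1 and Fam129c start at 71.6 Mb, just before Jak3 at 71.7 Mb. Ndrg4, Kcnn1, Mmp2 and Psd3 completed the 8 largest rises, with 1.06, 0.95, 0.90 and 0.75; the calls of Ndrg4 and Mmp2 were lost in several alternatives, with adjusted p up to 0.132 and 0.309, and those of Nxnl1 and Kcnn1 when a single library was left out, up to 0.0520 and 0.0929.

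The 8 largest falls were led by Cyp4f18, a cytochrome P450 that hydroxylates leukotriene B4, from 29.7 ± 0.375 to 7.80 ± 0.189 CPM (log2 fold change -1.93 ± 0.121, adjusted p = 1.20e-06). Cyp4f18 starts at 72.0 Mb, between Jak3 and Slc35e1. Pbx4, a homeobox gene, fell by 1.82, and Gdf15, a stress-induced cytokine of the TGFβ family, fell by 1.78, from 11.8 ± 0.311 to 3.44 ± 0.760 CPM (adjusted p = 0.00275). Both lie in the stretch of the 8 genes. Near Egln1, Slc7a5, the large neutral amino acid transporter, fell by 1.47 (adjusted p = 1.21e-06), Klhdc4 by 1.04 and Cbfa2t3 by 0.94. Ciapin1 and G430095P16Rik fell by 1.10 and 1.08. The call of Cbfa2t3 was lost without replicate 3 of WT (adjusted p = 0.0530), and that of G430095P16Rik without any of 4 single libraries (up to 0.108) and with the replicate number as a block (0.0531).

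**Figure D5:**
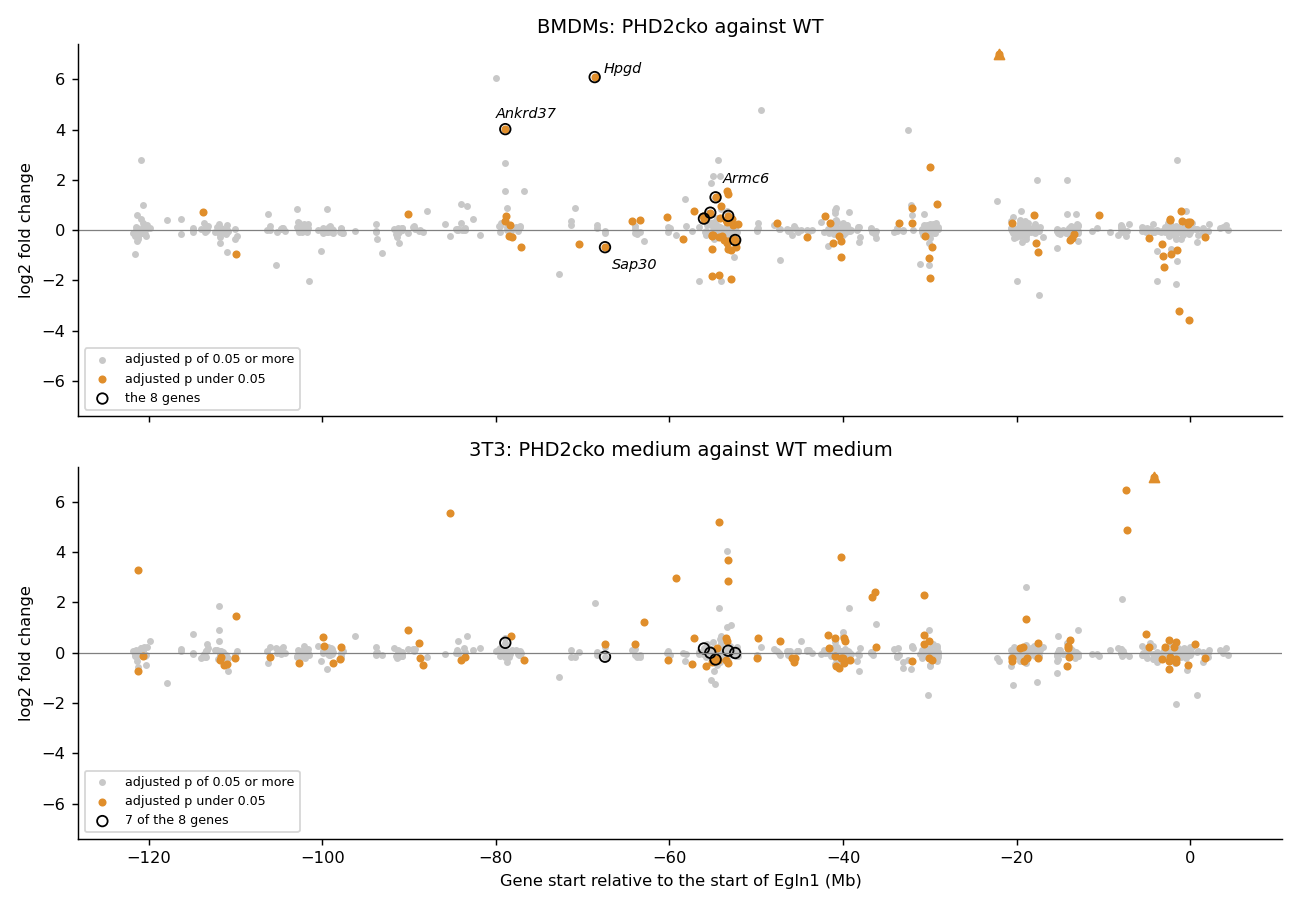
Log2 fold change (vertical axis) of the 750 chromosome 8 genes tested against the position of their start relative to that of Egln1 in Mb, in BMDMs (top) and 3T3 (bottom); orange points have an adjusted p under 0.05, open circles are the genes described, and triangles are values past the axis drawn at its edge. Called genes gather around the circles in BMDMs, where Hpgd and Ankrd37 are at 6.08 and 4.01, and Hpgd is left without a circle in 3T3.

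The pathways in which the genes take part were read from lists of related genes, written with earlier results of these data known. As background for the counts of this and the following lists, 3.38% of all genes tested were called higher in BMDMs and 3.35% lower. Of 30 other HIF targets 19 rose in BMDMs and none fell, with a median log2 fold change of 0.33 against 0.00 over all genes. Egln3, another HIF prolyl hydroxylase, rose by 1.96 ± 0.100 (adjusted p = 1.80e-07), the cytokine gene Mif by 1.19 ± 0.094 and the glycolytic Pfkl by 1.10 ± 0.043. Ankrd37 exceeded all of these, and Sap30 was the only gene of the 32 that was called lower. In 3T3, 6 of the 32 rose, 2 fell and the median was 0.09, where 15.7% of all genes tested were called.

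Around Hpgd, none of 21 other tested genes for prostaglandin synthesis, transport and reception rose and 4 fell. The background was 3.38% of all genes tested called higher and 3.35% called lower. The prostaglandin receptors Ptger3, Ptgir and Ptger4 fell by 0.98, 0.58 and 0.31, and the prostaglandin E synthase Ptges fell by 0.71 ± 0.112 (adjusted p = 0.00176). Ptger3 went from 14.7 ± 0.121 to 7.44 ± 0.622 CPM (adjusted p = 0.00121). The cyclooxygenase Ptgs1 was at 59.4 and 65.0 CPM in WT and PHD2cko BMDMs (adjusted p = 0.191). The median of these 21 genes was -0.03. Hpgd thus differed in the direction opposite to that of the 4 genes that passed.

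Around Lpl, 2 of 17 other tested genes for lipase maturation, control and lipid uptake rose and 1 fell, with a median of 0.05. Over all genes tested, 3.38% were called higher and 3.35% lower. The fatty acid receptor Cd36 rose by 1.37 ± 0.218, from 155 ± 12.1 to 399 ± 18.9 CPM (adjusted p = 0.00203), and Angptl4, an inhibitor of lipoprotein lipase and a HIF target, rose by 1.11 ± 0.165 (adjusted p = 0.00123). Lmf1, which is needed for lipase folding, was at 20.5 and 21.4 CPM (adjusted p = 0.817).

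Around Jak3, none of 21 other tested receptors, kinases and regulators rose and 3 fell, with a median of -0.15. Socs3, a feedback inhibitor of cytokine signalling, fell by 0.56 ± 0.078, from 53.2 ± 3.11 to 36.0 ± 1.24 CPM (adjusted p = 0.000670). The falls of Socs1 by 0.89 (adjusted p = 0.0496) and of the receptor Il21r by 0.35 (adjusted p = 0.0497) were just inside the threshold and were lost in several alternatives, up to 0.192 and 0.217. Il2rg, the common γ chain to which JAK3 binds, was at 131 and 101 CPM (adjusted p = 0.188). In the SIN3 complex, Rbbp7 rose by 0.21 (adjusted p = 0.0217; up to 0.0926 over the alternatives) and no other of 18 tested subunits passed, so Sap30 was the only one called lower. In the SLC35 family, Slc35f6 fell by 0.43 ± 0.041 (adjusted p = 3.80e-05) and Slc35b1 by 0.30 (adjusted p = 0.0135; up to 0.0690), 2 of 20 tested relatives of Slc35e1, and the median was -0.03.

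Markers of other cell types summed to far less than the macrophage markers in the BMDM libraries, and some of them moved. Fibroblast markers summed to 3.77 to 9.81 CPM in WT and 7.93 to 9.11 CPM in PHD2cko BMDMs; of 16, Sparc was called higher, at 2, 10 and 2 against 17, 12 and 22 counts (adjusted p = 0.0140; up to 0.0674), and Twist1 was at 0 in all 6. Of 12 B and plasma cell markers, Pax5 was at 0 in all 6 libraries, while the immunoglobulin genes Ighg2b and Igkc had 0 counts in every WT and 19 to 22 and 12 to 18 counts in the PHD2cko libraries, at least 6.69-fold and 5.15-fold higher against a floor of 3 counts per library. Ighm fell by 0.28 (adjusted p = 0.0434; up to 0.197), and the 12 markers summed to 227 to 236 CPM in WT and 186 to 205 CPM in PHD2cko. Neutrophil markers summed to 299 to 313 and 240 to 271 CPM, with Mmp8 falling by 0.68 (adjusted p = 7.89e-05) and Ly6g and Elane at 0 in all 6. Dendritic cell markers summed to 90.1 to 92.6 and 124 to 136 CPM, with Itgax rising by 0.54 (adjusted p = 0.0262; up to 0.115). Mast cell, basophil and eosinophil markers summed to at most 1.47 CPM in any BMDM library, and none was called. The part of these cells in the differences of the 8 genes was not tested.

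The genes most like each member over the 12 libraries, by Pearson correlation of log2 CPM, came from several chromosomes. These values describe 4 groups of libraries and were not split into the part of the cell type and the part of the genotype, which chose the members. Ankrd37 was most like S1pr1 and Gm9625 (r = 0.983 for both), and Hpgd most like Narf (r = 0.985) and Ighg2b (r = 0.979). Lpl was most like Dlgap4 and Nptn (both r = 0.999), Jak3 like Fgd6 (r = 0.996) and Arhgap10 (r = 0.993), and Armc6 like Gm10704 (r = 0.989) and Dars (r = 0.986). Zfp868 was most like Egln3 (r = 0.949) and Ankrd37 itself (r = 0.930). Sap30 was most like Bst2 and Daxx (r = 0.992 and 0.991), and Slc35e1 like Colgalt1 (r = 0.988) and Klk1b11 (r = 0.986). Of these 16 genes, Bst2, Arhgap10, Colgalt1 and Ankrd37 also lie on chromosome 8.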

How the data were processed

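RNA of BMDMs and of NIH/3T3 cells had been sequenced as single reads on a NextSeq 500, with 4 groups of 3 libraries. The deposited values are estimated counts per gene that the authors obtained with kallisto on GRCm38; tool and build are named in the submitters' processing notes. The values are whole numbers, not normalized, and strandedness is not given in the sources used here. The deposited table has 32544 genes, and all 12 columns were mapped by their labels.

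Counts were fitted in edgeR 4.0.16 (R 4.3.3). Genes were kept by filterByExpr, libraries were scaled by TMM, and all 12 libraries entered a single quasi-likelihood model. Tests were two-sided, with Benjamini-Hochberg adjustment over the 14285 genes kept and a threshold of 0.05. The pipeline was tested on simulated data. DESeq2 1.42.0, limma-voom 3.58.1, other filters, a replicate block and the removal of each library were the alternatives.

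Positions came from the GENCODE annotation of GRCm38, in which 31400 symbols were found as such, another 516 under a former symbol, and 628 had no match, and promoters from RefSeq. The macrophage share of a 3T3 library was its summed CPM of 20 markers over that in BMDMs of the matching label, and the subtraction removed this share of the mean BMDM profile. This share and the floors used the total count, and other marker sums the TMM-scaled library size.

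The 8 genes and the gene lists were chosen with earlier results of these data known. Besides them and Egln1, the text names the 8 largest rises and 8 largest falls among other called chromosome 8 genes with at least 1 CPM in either BMDM group and no overlap, the nearest tested gene on each side of each member, up to 3 called genes per direction of each list, the 2 genes most correlated with each member over log2(CPM + 0.5), and the Zfp genes of chromosome 8. Ptger4, Ptgs1, Lmf1, Il2rg and 4 Zfp relatives were added after their values were seen. Protein sequences were not used here. A background allele shared by both genotypes and some single genes of the lists are not reported here.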

Additional observations from a re-analysis of the deposited data

Results flagged for a closer look

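Armc6 stood out because every PHD2cko BMDM library was above every WT library, while every 3T3 library in PHD2cko medium was below every library in WT medium. Its log2 fold change was 1.30 in BMDMs and -0.27 in 3T3. The same opposite separation was found for 9 other genes named in the report or its lists. Of the other chromosome 8 genes, Gm8730 had values of 11.50 (from 10.92 without BMDM WT replicate 2 to 13.32 without BMDM WT replicate 1, as the WT libraries held 5, 0 and 1 counts) and -0.31, Adgrg1 of 2.52 and -0.55, Ndrg4 of 1.06 and -0.34, Kcnn1 of 0.95 and -0.25 and Mmp2 of 0.90 and -0.33. Unc13a, the neighbour of Jak3, had 0.30 and -0.42, and Slc7a5 had the reverse order of signs, with -1.47 and 0.10. Of these, Mmp2 and Unc13a passed the threshold in 3T3 by edgeR (adjusted p = 0.00846 and 0.0193). Gm8730, Adgrg1, Ndrg4, Kcnn1 and Slc7a5 did not (edgeR adjusted p = 0.0627, 0.152, 0.0520, 0.325 and 0.192). All of these genes but Unc13a had been named only with BMDM groups that did not overlap, so their selection fixed that part of the pattern. Outside chromosome 8, Ighm had -0.28 and 1.72 and Il21r -0.35 and 1.60. Both are expressed in BMDMs, and the macrophage share of the 3T3 libraries was 0.0819% in WT and 1.68% in PHD2cko medium. With that share subtracted, which was added for these genes after seeing the data, the values in 3T3 were 1.44 for Ighm and 0.09 for Il21r (edgeR adjusted p = 0.000554 and 0.939). The difference between the cell types was not tested for any of these genes. Groups without overlap were found for 31.9% of all genes tested in either comparison. With 3 libraries a group, no gene was screened for a single deviating library.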

How the results depend on the processing

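The log2 fold changes of the 8 genes in BMDMs kept their direction under every alternative in which they were tested, leaving out each library included; Ankrd37 was not tested with a minimum of 10 counts in every library. Most moved by less than the spread between replicates, and the exceptions were Ankrd37 without BMDM WT replicate 2 (3.93) and Hpgd without BMDM WT replicate 1 (6.28). All 8 stayed called between cell types under every alternative in which they were tested, and a minimum of 10 counts in every library left 6.

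In a fit of only the libraries compared, 2514 instead of 961 genes were called in BMDMs and 173 instead of 93 on chromosome 8, while 990 instead of 2240 were called in 3T3, 48 instead of 109 on chromosome 8 and 0 of the 8 members instead of 1. DESeq2 and limma-voom each called 2 members in 3T3. With 1 BMDM library left out, 525 to 668 genes were called in BMDMs and 69 to 73 on chromosome 8. With 1 3T3 library left out, 1278 to 2798 genes were called in 3T3, 62 to 142 on chromosome 8 and 0 to 2 members, the lowest counts of genes without replicate 3 of PHD2cko medium and the highest without replicate 1 of WT medium. Between cell types 11857 to 12374 genes and 8 members were called with a library left out. The cause of these differences was not tested.

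Some values changed sign. In 3T3 the fitted value of Hpgd went from 1.98 to -2.44 with the macrophage share subtracted, which left 0 counts in PHD2cko medium, so neither is read as a fold. With the same subtraction Lpl had -0.0050 and Zfp868 0.0034. Zfp868 in 3T3 also had 0.0056 with DESeq2, 0.0058 with DESeq2 size factors, 0.0065 with at least 10 counts in every library and 0.0033 with only the libraries compared. With a library left out, values in 3T3 ran from -0.27 to 0.037 for Sap30, from -0.034 to 0.036 for Zfp868 and from -0.043 to 0.026 for Slc35e1. In BMDMs they ran from -0.14 to 0.064 for Hmgb2, from -0.33 to 0.17 for Slc18a1 and from -0.35 to 0.39 for Insl3.

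With the replicate number as a block, 815 genes were called in BMDMs (82 on chromosome 8), 1953 in 3T3 (92 on chromosome 8, 1 member) and 12135 between cell types (8 members). The numbers did not pair the samples, as deviations of libraries with the same number correlated between -0.0497 and 0.0242 within a cell type, and not every sample correlated best with its own number. At 3 libraries a group, low genes such as Hpgd and Ankrd37 in WT BMDMs rest on 6 to 15 counts.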
